A study of Rattus norvegicus with 19 samples.

Results

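The Id genes and the bone morphogenetic protein (BMP) signalling genes that stand around them in liver were followed in rats given a single dose of PCN or its vehicle. The genes were Id1, Id2, Id3, Id4, Smad6, Smad7, Bmp6, Bmpr1a, Hamp and Smoc1, 10 of the 13810 genes that the array annotation pairs with a probe set of their own. Members were taken as all probe sets, of both array types, annotated to exactly 1 of these genes. The first array type held 16 such probe sets for all 10 genes and the second held 7, for Id4, Smoc1, Bmp6 and Smad6. Id4 and Smoc1 were included because earlier results of these same data had shown them lower after PCN, so their PCN and corn oil values are given as a description, without a test, and support nothing.

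The animals were adult rats, fasted overnight before treatment. The treated group received 100 mg/kg PCN by intraperitoneal injection, the controls received the corn oil vehicle alone by the same route, and livers were taken 8 h later from both. PCN, pregnenolone-16α-carbonitrile, is a steroid that switches on the pregnane X receptor of rodents, a nuclear receptor best known for inducing drug-metabolizing enzymes in liver, and the study asked whether PCN also activates genes outside drug metabolism. Strain, sex and age in weeks were not given in the sources used here, and whole liver was used, so each value is an average over all its cell types. The labels name the 5 animals of a group as biological replicates. The first array type was run on 5 PCN and 5 corn oil livers, and the second on 5 PCN and 4 corn oil livers, without corn oil replicate 2.

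BMPs are secreted ligands that bind pairs of receptor kinases, which phosphorylate SMAD proteins that enter the nucleus with Smad4 and switch on target genes. The Id genes are classical targets of this pathway and encode helix-loop-helix proteins without a DNA-binding region, which pair with bHLH transcription factors and keep them from DNA. Smad6 and Smad7 are targets that act back on the pathway as inhibitors. In liver the pathway is best known for iron control, where endothelial cells release Bmp6 and hepatocytes answer with hepcidin, the hormone encoded by Hamp, which blocks iron export from cells.

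The promoter sequences of the genes on which the results turn are shown so that the BMP targets can be set beside Id4 and Smoc1. RefSeq's promoter table gives 250 bases before 1 start per gene on the rat assembly GRCr8, and these are printed 5′ to 3′ on the gene's own strand, up to the outermost annotated start of the gene. That start lies inside the table's window for Smoc1, by 14 bases, and for Id1, by 39, so these 2 are shorter. Capitals mark GGCGCC, a GC-rich element described in BMP-responsive promoters, and CANNTG, the E-box read by bHLH factors. The stretches are chr17:16598294-16598543 on the minus strand for Id4, chr6:106432356-106432591 on the plus strand for Smoc1, chr3:161671314-161671524 on the plus strand for Id1, and chr1:95300272-95300521 on the minus strand for Hamp.
Id4: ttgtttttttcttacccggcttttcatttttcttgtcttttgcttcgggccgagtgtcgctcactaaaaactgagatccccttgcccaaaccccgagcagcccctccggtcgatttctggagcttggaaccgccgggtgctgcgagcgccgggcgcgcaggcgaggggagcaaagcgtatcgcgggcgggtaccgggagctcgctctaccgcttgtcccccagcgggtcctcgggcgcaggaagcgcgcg
Smoc1: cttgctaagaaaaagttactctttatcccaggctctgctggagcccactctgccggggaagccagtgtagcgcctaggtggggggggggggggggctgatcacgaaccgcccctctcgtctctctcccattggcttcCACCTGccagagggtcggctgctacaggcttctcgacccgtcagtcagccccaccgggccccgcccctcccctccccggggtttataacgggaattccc
Id1: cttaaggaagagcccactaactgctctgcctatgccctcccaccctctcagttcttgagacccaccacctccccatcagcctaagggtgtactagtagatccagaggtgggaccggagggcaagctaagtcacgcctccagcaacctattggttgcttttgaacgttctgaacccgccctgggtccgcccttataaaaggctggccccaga
Hamp: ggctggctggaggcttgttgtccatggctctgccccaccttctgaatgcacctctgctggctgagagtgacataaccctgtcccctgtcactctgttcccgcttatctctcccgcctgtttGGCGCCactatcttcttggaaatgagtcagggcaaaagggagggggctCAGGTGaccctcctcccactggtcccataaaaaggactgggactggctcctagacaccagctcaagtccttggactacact
Both strands of the whole 250-base windows were searched, and both motifs read the same on either strand. Positions are counted back from the start that the table uses. The Hamp window held GGCGCC at 129 bases before the start and an E-box, CAGGTG, at 81. The Smoc1 window held the E-box CACCTG at 113 bases before the start, and the Id1 window held CAACTG at 9, past the outermost annotated start and so outside the printed stretch. Neither motif was in the Id4 window. Among the other members the Smad7 window held GGCGCC at 96 and at 36 bases before the start, and the Id2 window held the E-box CAGCTG at 215. Of 33469 rat promoter windows in the same table, 8.69% held GGCGCC and 65.5% held CANNTG. The SMAD-binding letters CAGAC, present in 42.9% of windows, and the nuclear receptor hexamer AGTTCA, present in 12.2%, were in no member's window. The table had an entry for 9 of the 10 genes, all but Smad6. The Bmp6 window lies wholly inside the annotated gene, and the Id3 window reaches 38 bases into it. A match is only a run of letters, and a window without one says nothing of more distant sites.

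Values are log2 expression per probe set as deposited, and fold changes are PCN minus corn oil on that scale with the moderated standard error (SE). A probe set was called where the p of the limma fit over its whole table, adjusted by the Benjamini-Hochberg method, was below 0.05. The 2 array types were tested separately. Correlation of an array with the others of its group was lowest for corn oil replicate 2, at 0.963. It was 0.980 for PCN replicate 2 and 0.982 for PCN replicate 4, and at most 0.992 for the other arrays of the first type. Results that rest on corn oil replicate 2 or PCN replicate 2 are given with and without them. The hepatocyte markers were bright, with a mean over 8 genes between 13.56 and 13.99 on the 10 arrays of the first type.

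Id4, an Id protein best known from neural and mammary progenitor cells, was lower after PCN on all 4 of its probe sets. On its brightest probe set, 1375120_at, the corn oil livers read 9.99, 10.34, 9.76, 9.92 and 10.10, and the PCN livers 8.83, 9.23, 8.51, 9.10 and 9.59. Every PCN liver lay below every corn oil liver. The means were 10.02 ± 0.22 and 9.05 ± 0.41 (SD, n = 5 each), a difference of -0.97 ± 0.18 (SE), or 1.96-fold lower after PCN.

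The other Id4 probe sets ran the same way. On 1375183_at the corn oil livers read 9.17, 9.39, 9.17, 9.16 and 9.18 and the PCN livers 8.20, 8.94, 8.03, 8.42 and 8.64, again without overlap, a difference of -0.77 ± 0.15 (SE). On the second array type 1394022_at read 9.34, 9.69, 9.59 and 9.96 in corn oil livers against 8.81, 9.29, 8.47, 9.04 and 9.27 after PCN, a difference of -0.67 ± 0.17 (SE) with the groups apart by a narrow gap. The last, 1385923_at, was dim, at the 30.5th percentile of its table, with 5.82, 5.79, 5.60 and 5.72 against 5.26, 5.34, 5.22, 5.45 and 5.56, a difference of -0.36 ± 0.08 (SE). In whole liver, fewer Id4-expressing cells and less Id4 RNA per cell cannot be told apart.

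Smoc1, a secreted matrix-associated protein that modulates BMP signalling outside the cell, was lower on both array types. On 1388545_at the corn oil livers read 11.00, 10.76, 10.49, 10.48 and 10.31 and the PCN livers 9.77, 9.75, 9.58, 9.58 and 10.16. Here too the groups did not overlap, with means of 10.61 ± 0.27 and 9.77 ± 0.24 (SD, n = 5 each) and a difference of -0.84 ± 0.15 (SE), 1.79-fold lower. On the second array type 1392852_at read 9.85, 9.73, 9.93 and 9.63 against 9.20, 9.07, 9.10, 8.82 and 9.22, a difference of -0.70 ± 0.10 (SE), 1.63-fold lower.

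**Figure D1:**
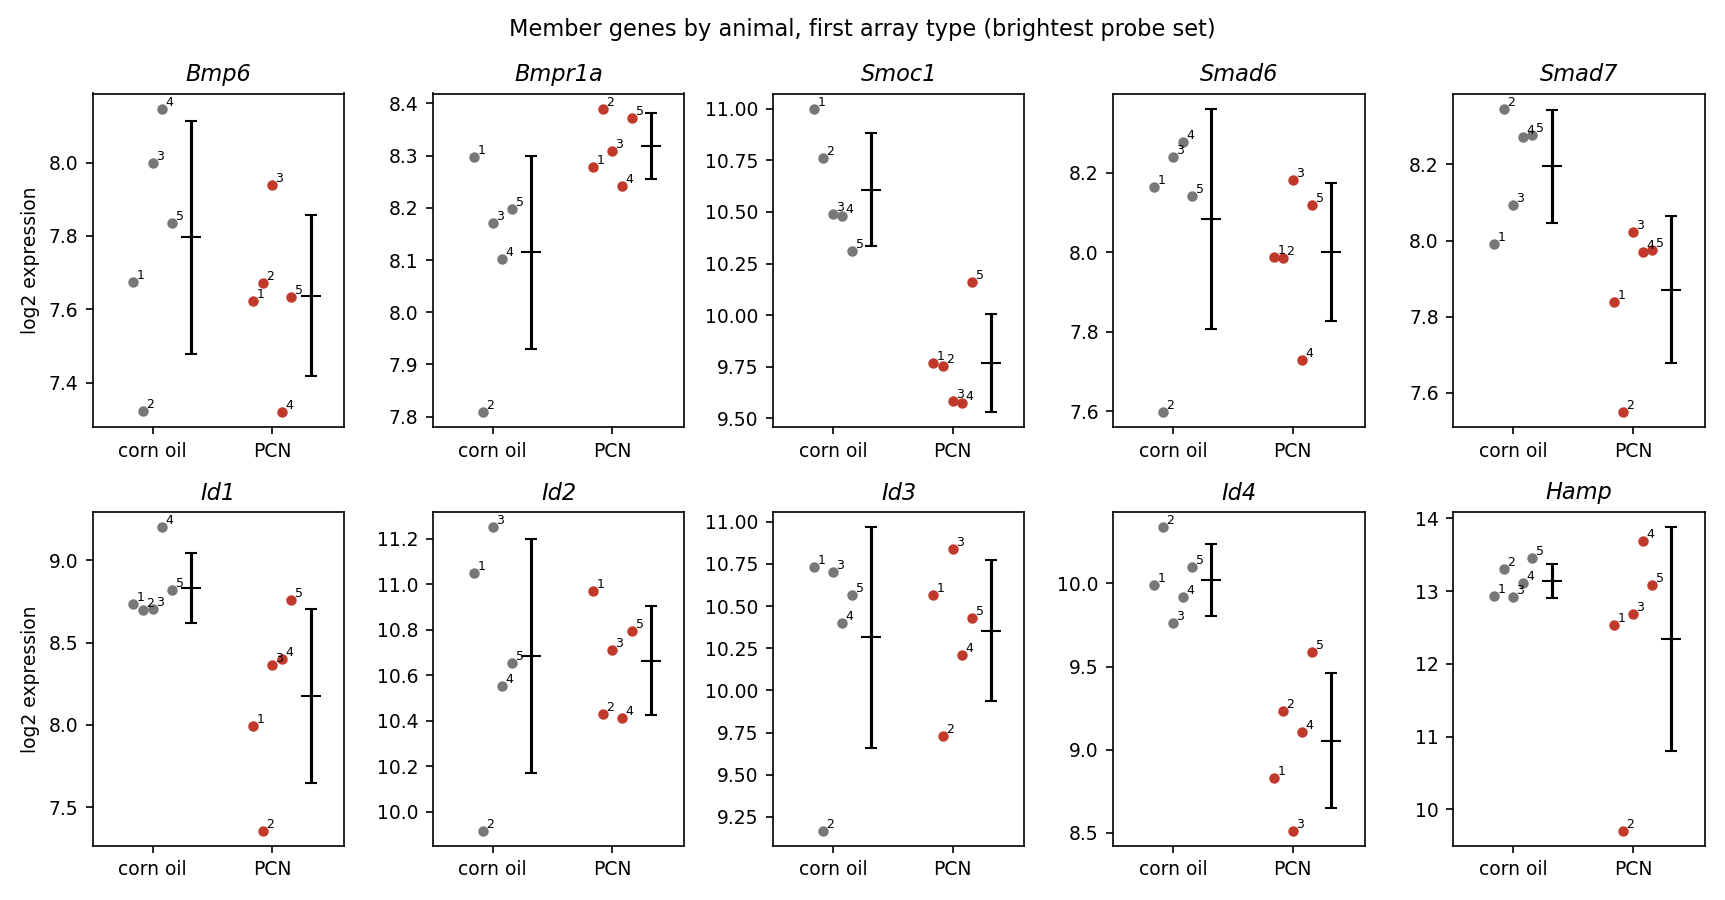
Log2 expression (vertical axis) of the brightest tested probe set of each member gene on the first array type, 1 point per liver with its replicate number, in corn oil and PCN groups, with bars for the mean ± SD (n = 5 each). The groups are separate for Id4 (9.76 or more against 9.59 or less) and Smoc1, whereas for Hamp 3 PCN livers lie below the controls, with PCN replicate 2 far below at 9.71, and 1 lies above them.

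Of the 14 member probe sets tested on the first array type, 3 were called lower and 0 higher, beside 0.945% of all probe sets called lower and 2.31% called higher. All 3 belong to Id4 and Smoc1, which were chosen on this contrast, so nothing is read from that count. On the second array type 3 of 7 were called lower, again of Id4 and Smoc1 alone, beside 1.64% of all probe sets. Higher calls made up 3.76% of that table, and 6 of 7 member differences there were negative, beside 58.9% of all. Groups of PCN and corn oil livers did not overlap for these 3 members on the first type, all lower, beside 2.05% of all probe sets lower and 3.99% higher without overlap. The second type likewise had 3 members without overlap, all lower, beside 5.32% lower and 5.06% higher.

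The other 8 genes were tested. Of their 11 probe sets tested on the first array type, limma called 0, beside 3.25% of all probe sets called in either direction. At an unadjusted p below 0.05 there were 2 of 11, Id1 and Smad7, both lower, beside 17.7% of all probe sets in either direction and 6.71% lower. On the second array type 0 of 4 were called and 0 passed the unadjusted p, beside 5.4% and 27.3%. On the first type the 2 of 11 is close to the 17.7% background that counts higher and lower probe sets. Both were lower, and 2 of 11 is above the 6.71% of all probe sets that were lower. Whether it exceeds that share was not tested.

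Among the Id genes, Id1, the family member most often used to read BMP activity in liver, came nearest to a call. Its probe set 1387028_a_at read 8.74, 8.70, 8.71, 9.20 and 8.82 in corn oil livers and 7.99, 7.36, 8.36, 8.40 and 8.76 after PCN. PCN replicates 1 to 4 lay below every corn oil liver, and PCN replicate 5 lay among them. The means were 8.83 ± 0.21 and 8.17 ± 0.53 (SD, n = 5 each), a difference of -0.66 ± 0.22 (SE) with a 95% interval of -1.13 to -0.19 and an adjusted p of 0.130 (limma). Without PCN replicate 2 the difference was -0.45 (adjusted p = 0.126, limma). With array weights the difference was -0.65 and passed the threshold, at an adjusted p of 0.0482 (limma).

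Id2 was read by 2 probe sets that did not give the same picture. On 1368870_at the corn oil livers read 10.16, 9.95, 10.43, 9.85 and 9.56 and the PCN livers 10.02, 8.32, 9.79, 9.55 and 9.69. PCN replicate 2 stood alone below all others, and the difference was -0.52 ± 0.28 (SE; 95% interval -1.13 to 0.09; adjusted p = 0.372, limma), or -0.23 without that liver. It was -1.02 when the model held a term for the array split seen in earlier results of these data (adjusted p = 0.107, limma). On 1375532_at the same PCN replicate 2 read 10.43, inside the corn oil range of 9.92 to 11.25, and the difference was -0.02 ± 0.22 (SE; 95% interval -0.50 to 0.46), or -0.21 without corn oil replicate 2.

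Id3 showed no difference that the test could see. Corn oil livers read 10.73, 9.17, 10.70, 10.40 and 10.57 and PCN livers 10.57, 9.73, 10.84, 10.21 and 10.43 on 1387769_a_at. In both groups replicate 2 was the lowest liver, and the groups overlapped. The difference was 0.04 ± 0.29 (SE; 95% interval -0.60 to 0.67; adjusted p = 0.956, limma), and its sign changed between scalings, from -0.04 to 0.03. Without corn oil replicate 2 the difference was -0.25, and it was -0.35 when the model held a term for the array split seen in earlier results of these data.

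**Figure D2:**
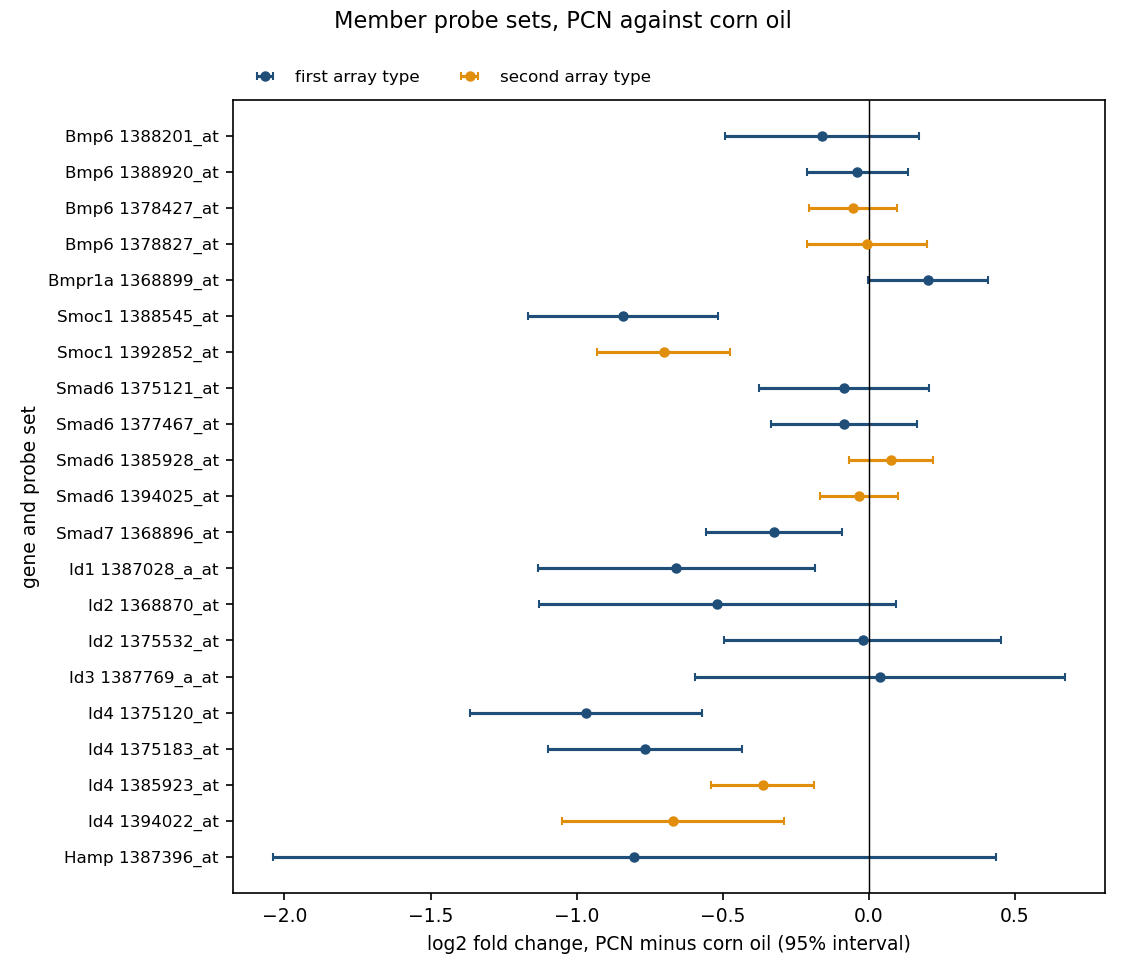
Log2 fold change, PCN minus corn oil (horizontal axis), of each member probe set with its 95% interval from the limma fit, for both array types. The Id4 and Smoc1 probe sets lie to the left of 0, from -0.97 to -0.36, and are shown as a description. The intervals of Id1 and of Smad7 1368896_at also lie left of 0, and those of the other members reach 0 or cross it.

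Hamp, the hepcidin gene and the main hepatocyte target of Bmp6, differed by an amount that rested on a single liver. On 1387396_at the corn oil livers read 12.94, 13.30, 12.91, 13.11 and 13.45 and the PCN livers 12.53, 9.71, 12.68, 13.69 and 13.09. PCN replicates 1, 2 and 3 lay below every corn oil liver, PCN replicate 5 among them, and PCN replicate 4 above all. PCN replicate 2 lay 9.01-fold below the median of the other PCN livers. The difference was -0.80 ± 0.57 (SE; 95% interval -2.04 to 0.44; adjusted p = 0.506, limma) and -0.14 without PCN replicate 2 (adjusted p = 0.706, limma).

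Of the inhibitory SMADs, Smad7, which blocks signalling by both BMP and TGF-beta receptors, had a lower mean after PCN that did not pass the test. On 1368896_at the corn oil livers read 7.99, 8.35, 8.09, 8.27 and 8.28 and the PCN livers 7.84, 7.55, 8.02, 7.97 and 7.97. PCN livers other than replicate 3 lay below the lowest corn oil liver, with the gap to it narrow for most. The difference was -0.32 ± 0.11 (SE; 95% interval -0.56 to -0.09; adjusted p = 0.130, limma), and -0.24 without PCN replicate 2 (adjusted p = 0.158, limma). It passed with array weights (adjusted p = 0.0466, limma) and when arrays were centred on the probe sets that the array types share (adjusted p = 0.0484, limma). The other 2 Smad7 probe sets, at the 20.5th and 19.6th percentiles of brightness, fell below the filter, and without it 1368897_at differed by 0.06 (95% interval -0.42 to 0.54) and 1368898_at by -0.03 (95% interval -0.18 to 0.13).

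Smad6, the inhibitory SMAD more specific to BMP receptors, showed small differences on all 4 probe sets. On 1375121_at corn oil livers read 8.17, 7.60, 8.24, 8.28 and 8.14 and PCN livers 7.99, 7.98, 8.18, 7.73 and 8.12. The groups overlapped throughout, with corn oil replicate 2 the lowest of all. The difference was -0.08 ± 0.13 (SE; 95% interval -0.38 to 0.21), or -0.21 without corn oil replicate 2, and its other 3 probe sets gave -0.08 (first type), -0.03 and 0.08 (second type).

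At the top of the pathway, the ligand Bmp6 and the receptor Bmpr1a were not lower by a measurable amount. Bmp6 1388201_at read 7.67, 7.32, 8.00, 8.15 and 7.84 in corn oil livers and 7.62, 7.67, 7.94, 7.32 and 7.63 after PCN, with full overlap and a difference of -0.16 ± 0.15 (SE; 95% interval -0.49 to 0.17; adjusted p = 0.633, limma), or -0.28 without corn oil replicate 2. Its other probe sets differed by -0.04 on the first array type and by -0.01 and -0.05 on the second. Bmpr1a 1368899_at, a receptor kinase that hepatocytes need for hepcidin expression, read 8.30, 7.81, 8.17, 8.10 and 8.20 in corn oil livers and 8.28, 8.39, 8.31, 8.24 and 8.37 after PCN. The PCN livers lay at the upper end, 3 of them above the highest corn oil liver, and the difference was 0.20 ± 0.09 (SE; adjusted p = 0.288, limma), or 0.13 without corn oil replicate 2, the lowest liver. For Bmp6 and Smad6 on the second array type the sign moved between scalings, and centring on the shared probe sets, which shifted the median of all probe sets there to -0.31, carried them with it.

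Whether the lower Id4 values went with other BMP targets was read from the size of the differences and from the animals. The 95% intervals of Id1, of Id2 1368870_at and of Hamp contained a difference as large as the -0.97 ± 0.18 (SE) of Id4 1375120_at. Id4 was chosen on this contrast, and this was its largest difference. The intervals of Id2 1375532_at, Id3, Smad6 and Smad7 did not contain it, nor the -0.77 and -0.67 of Id4 1375183_at and 1394022_at. Those of Id2 1375532_at, Id3, Smad6 1375121_at and Smad7 1368896_at did contain the -0.36 of the dim Id4 1385923_at. Those of the other Smad6 probe sets did not. The comparison thus depends on the Id4 probe set taken. The sizes also moved with the model. With the term for the array split Id2 1368870_at differed by -1.02, against -0.89 and -0.56 for the Id4 probe sets of the first array type. Over the alternatives that kept every liver, Hamp ran from -1.71 to -0.59 and Id1 from -0.93 to -0.63. Leaving out Id4 and Smoc1, 9 of 11 differences on the first array type were negative and their median was -0.08, beside 50% negative and a median of 0.00 over all probe sets.

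The order of the PCN animals varied from gene to gene, and no difference in order was tested. PCN replicate 2 was the lowest PCN liver for 5 of the 14 tested probe sets, those of Id1, Hamp, Id2 1368870_at, Id3 and Smad7. For Id4 the same liver was among the higher PCN livers, ranked 4th of 5 from the lowest on 1375120_at and 5th on 1375183_at, and PCN replicate 3 was the lowest on both. Smad6 1377467_at and Bambi had the same pattern as Id4 1375183_at, with PCN replicate 3 lowest and PCN replicate 2 highest. PCN replicate 4 was the lowest for 5 member probe sets, as many as PCN replicate 2. Over all probe sets tested PCN replicate 2 was the lowest PCN liver in 36.4%, against 12.0% to 25.6% for the others, so its share among the members is close to its share everywhere.

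**Figure D3:**
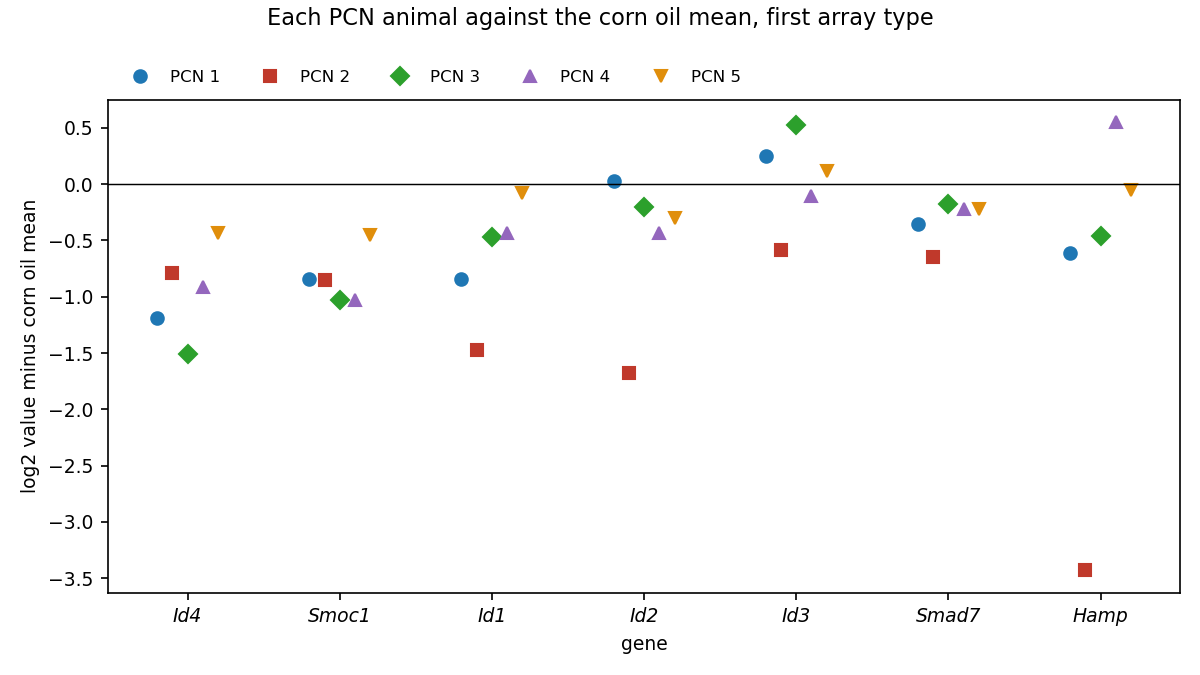
Log2 value of each PCN liver minus the corn oil mean (vertical axis) for selected members, on the first array type, 1 symbol per PCN replicate. PCN replicate 2 is lowest for Hamp, Id1, Id2 (1368870_at), Id3 and Smad7, and lies at -0.79 for Id4, where PCN replicate 3 is lowest at -1.51.

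Correlations across the 10 animals of the first array type were taken after the group means were removed, so that the treatment difference itself plays no part, a comparison chosen after the data were seen. Among 91 pairs of member probe sets, 87 of them between genes, 12 had an exact within-group permutation p below 0.05 (two-sided, 14400 arrangements) and 0 remained after Benjamini-Hochberg adjustment. Against 12 probe sets of other genes, Id4 1375120_at gave Pearson's r between -0.60 and 0.53, with 1 of them below 0.05 before adjustment.

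That single relation was with Id3 and was inverse, with r = -0.60 and Spearman's rho = -0.75 (exact permutation p = 0.0468 for r, adjusted p = 0.343) and r = -0.85 without the animals farthest from the median, PCN replicates 3 and 5. With Id1 the r was 0.07 and rho 0.05 (exact permutation p = 0.890), and with Hamp r was -0.03 and rho 0.13 (exact permutation p = 0.951). Without PCN replicate 2 these were r = 0.41 with Id1 (exact permutation p = 0.405) and r = 0.55 with Hamp (exact permutation p = 0.290). For the other Id4 probe set, 1375183_at, r was -0.43 with Id1 and -0.58 with Hamp over all animals, and 0.41 and 0.56 without PCN replicate 2. For 1375183_at the sign of both relations thus rests on a single liver. For 1375120_at their size does, and with Hamp the sign changed too, from an r of only -0.03. Of these relations 0 passed the test with or without that liver. With Id3 the other Id4 probe set gave r = -0.69 and rho = -0.75 (exact permutation p = 0.00583, adjusted p = 0.177). With Smoc1, Id4 1375120_at gave r = 0.53 and rho = 0.38 (exact permutation p = 0.123), and r = 0.16 without PCN replicates 3 and 5. Id4 1375183_at gave r = 0.34 with Smoc1 (exact permutation p = 0.370). The 2 Id4 probe sets gave, with each other, r = 0.79 and rho = 0.92 (exact permutation p = 0.0335 for r) and r = 0.71 without the same 2 animals.

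The highest correlations between other genes did not pass the adjustment either. Id2 1375532_at and Id3 gave r = 0.86 and rho = 0.76 (exact permutation p = 0.00347, adjusted p = 0.158). Their r was 0.87 without PCN replicate 2 and 0.69 without corn oil replicates 2 and 3. With the other Id2 probe set, 1368870_at, Id3 gave r = 0.50 (exact permutation p = 0.1). Smad6 1375121_at and Id3 gave r = 0.81 (exact permutation p = 0.0479), and r = 0.46 without corn oil replicate 2 and PCN replicate 4. Hamp and Smad7 gave r = 0.80 and rho = 0.77 (exact permutation p = 0.00979, adjusted p = 0.223), with r = 0.48 without PCN replicate 2. Hamp and Id1 gave r = 0.82 and rho = 0.64 (exact permutation p = 0.0517) and r = 0.35 without PCN replicate 2, so both values rest on that liver. Bmp6 1388201_at and Smad6 1375121_at gave the highest value between genes, r = 0.91 and rho = 0.84 (exact permutation p = 0.000833, adjusted p = 0.0758), and r = 0.75 without corn oil replicate 2 and PCN replicate 4. Their other probe sets did not repeat it, with r = -0.41 for Bmp6 1388920_at with Smad6 1375121_at, r = 0.17 for Bmp6 1388201_at with Smad6 1377467_at, and r = -0.56 between the 2 Bmp6 probe sets.

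The second array type read the same livers again for 4 members. Over 9 animals, with the group means removed, Id4 gave r = 0.80 and rho = 0.82 between array types (exact permutation p = 0.0254 for r and 0.0177 for rho, adjusted p = 0.101 over 4 genes), and r = 0.58 without PCN replicates 3 and 5 (exact permutation p = 0.243). Smoc1 gave r = 0.58 and rho = 0.60 (exact permutation p = 0.123, adjusted p = 0.246). Bmp6 gave r = 0.16 and Smad6 r = -0.15 (exact permutation p = 0.696 and 0.765), with rho of 0.10 and 0.05.

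**Figure D4:**
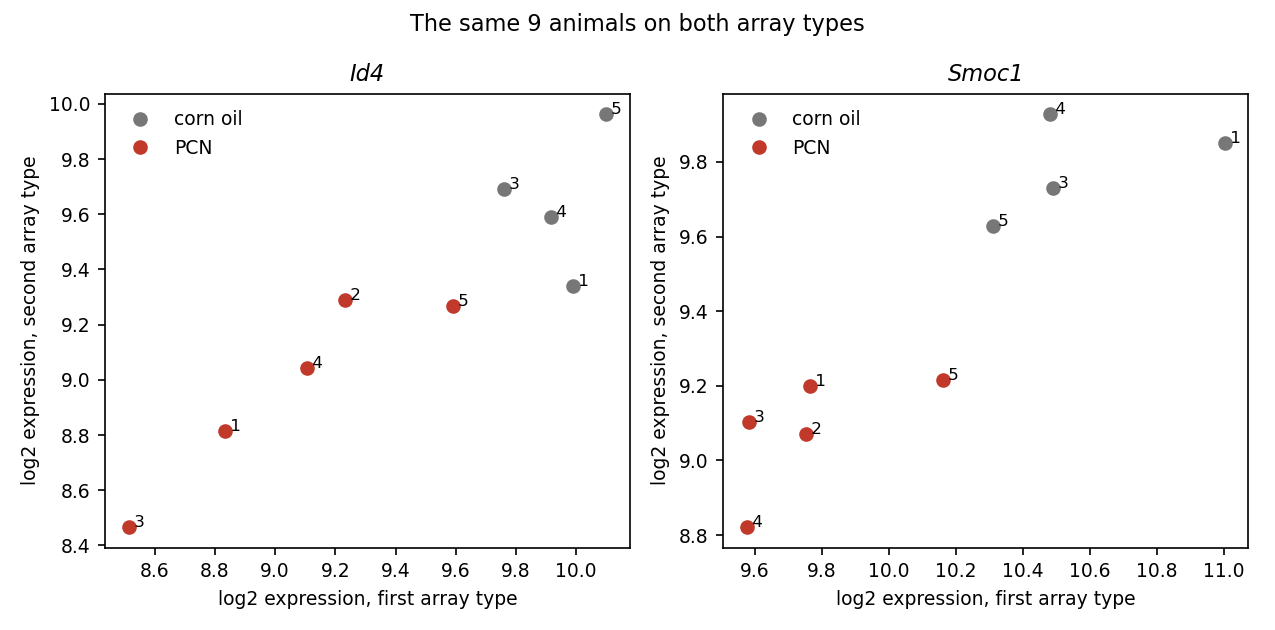
Log2 expression of Id4 and Smoc1 in each liver on the first array type (horizontal axis) and the second (vertical axis), 1 point per animal with its replicate number (n = 9). For Id4 PCN replicate 3 is lowest on both, at 8.51 and 8.47, and for Smoc1 the highest PCN liver reads 9.22 on the vertical axis and the lowest corn oil liver 9.63.

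The wider BMP pathway was read gene by gene, each by its brightest probe set, and lists are described by counts and medians beside a median of -0.02 and 54.4% negative over all probe sets tested. Of 13 target genes 12 were tested, and 1 was called lower, Id4 itself, with 10 of 12 differences negative and a median of -0.21, or -0.10 without Id4. At an unadjusted p below 0.05 there were 5 genes of this list, all lower, namely Id4, Id1, Smad7, Bambi and Atoh8. Id4, chosen on this contrast, is in both the 5 and the 10 of 12, and 11 tested genes remain without it. Of all probe sets, 6.71% were lower and 11% higher at that p on the first array type. On the second array type these shares were 14.1% and 13.2%. The same shares stand beside the counts at that p in the lists that follow. The list was drawn up with earlier results of these data known. Bambi and Atoh8 are named here after their values were seen.

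Atoh8, a bHLH factor that BMP signalling induces in hepatocytes and that acts on hepcidin, read 9.55, 9.65, 9.74, 9.79 and 9.78 in corn oil livers and 9.25, 9.34, 9.69, 9.05 and 9.38 after PCN. Only PCN replicate 3 lay among the controls, and the difference was -0.36 ± 0.12 (SE; adjusted p = 0.123, limma). Bambi, a decoy receptor without a kinase, read 7.90, 7.98, 7.72, 7.63 and 7.69 against 7.54, 7.65, 7.07, 7.47 and 7.55, with PCN replicate 2 as the highest PCN liver, and the difference was -0.33 (adjusted p = 0.153, limma). Neither passed the test in the main fit. Both 95% intervals, -0.62 to -0.11 for Atoh8 and -0.58 to -0.08 for Bambi, stopped short of the -0.97 of Id4 1375120_at. They also stopped short of the -0.77 and -0.67 of 2 other Id4 probe sets, but contained the -0.36 of the dim 1385923_at. With array weights 3 targets beside Id4 were called, namely Id1, Smad7 and another gene of this list.

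Of 12 ligand genes 6 were tested, and Gdf6, a BMP-family growth factor, was called lower on the second array type. Its corn oil livers read 6.09, 6.15, 5.86 and 6.21 and its PCN livers 5.76, 5.86, 5.70, 5.77 and 5.66, with PCN replicate 2 level with the lowest corn oil liver at 5.86, a difference of -0.33 ± 0.08 (SE; adjusted p = 0.0332, limma). The call was lost in 6 of 9 fits that left out 1 liver, with adjusted p up to 0.0879 (limma). It was also lost with median scaling, quantile and cyclic loess normalization and the replicate block, at adjusted p of 0.0627 to 0.0859 (limma). Of 12 receptor genes 7 were tested and limma called 0, with 1 higher at an unadjusted p below 0.05, Acvr1, at 0.52 (adjusted p = 0.199, limma). Of 10 SMAD and cofactor genes 8 were tested and limma called 0, with 1 higher at the unadjusted p, the corepressor Skil, at 0.40 (adjusted p = 0.219, limma), and Smad1 at 0.20.

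Among 25 inhibitors and modulators 12 were tested, and Smoc1 was called lower and its paralog Smoc2 higher. Smoc2, measured on the second array type, read 7.07, 7.40, 7.04 and 6.84 in corn oil livers and 7.76, 7.57, 7.44, 7.44 and 7.43 after PCN. The groups did not overlap, and the difference was 0.45 ± 0.11 (SE; adjusted p = 0.0395, limma). That call was lost in 7 of 9 fits without 1 liver, up to an adjusted p of 0.111 (limma), and when arrays were centred on the shared probe sets, where the difference was 0.17 (adjusted p = 0.219, limma), and with the replicate block (adjusted p = 0.0866, limma).

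**Figure D5:**
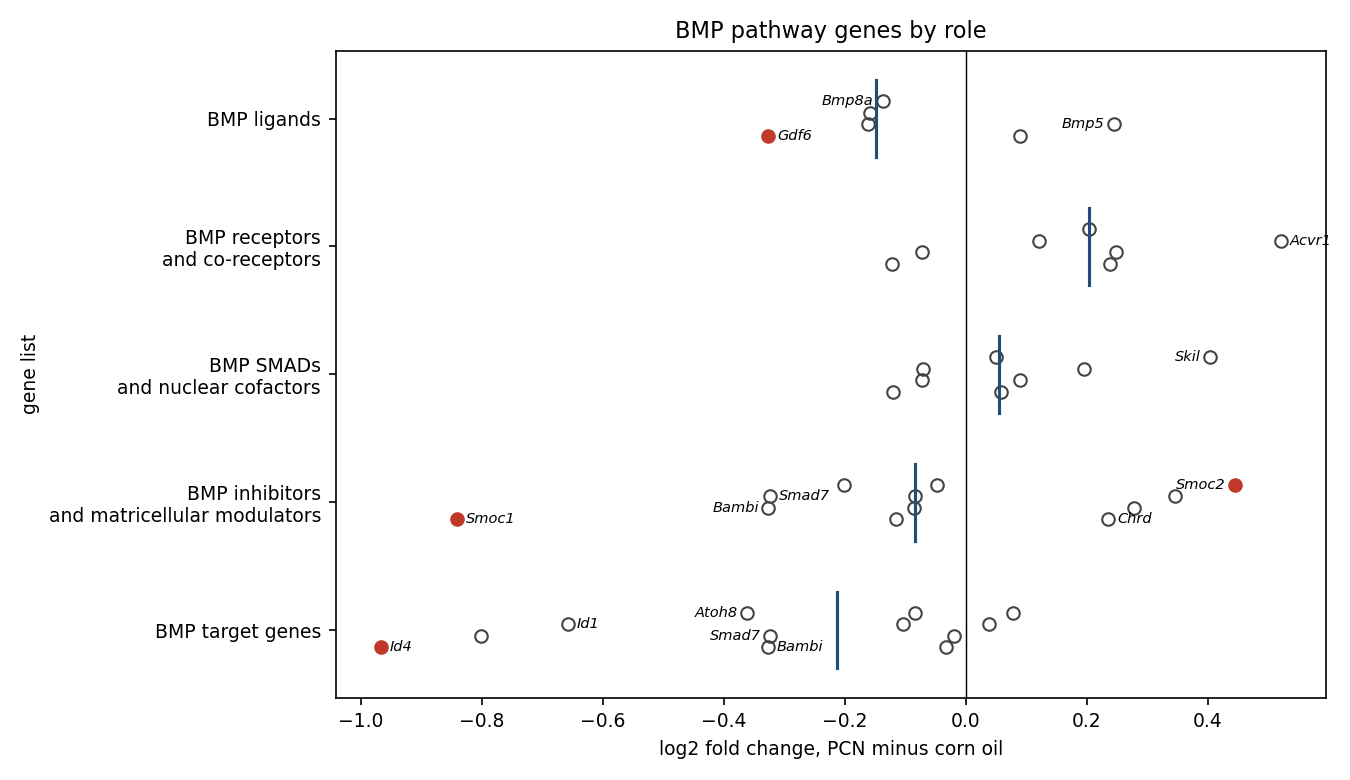
Log2 fold change, PCN minus corn oil (horizontal axis), of each tested gene in the BMP pathway lists (vertical axis), filled where the adjusted p was below 0.05, with a blue line at each list's median. Names mark genes with an unadjusted p below 0.05. Id4 and Smoc1 lie furthest left at -0.97 and -0.84, the target list has its median at -0.21 and the receptor list at 0.20.

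Among 18 iron-handling genes, which include Hamp, Bmp6 and regulators of hepcidin, 13 were tested and Steap3 was called lower. Steap3, an endosomal ferrireductase that reduces transferrin-delivered iron, read 8.09, 8.24, 8.00, 8.10 and 8.15 in corn oil livers and 7.51, 7.51, 7.68, 7.39 and 7.66 after PCN. The groups did not overlap, and the difference was -0.57 ± 0.08 (SE; adjusted p = 0.0033, limma). With each liver left out in turn its adjusted p stayed between 0.0054 and 0.0144 (limma). At an unadjusted p below 0.05 there were 2 lower, Steap3 and Slc40a1, and 1 higher, Aco1, and the last 2 and Tfrc are named after their values were seen. Aco1, the iron-regulatory aconitase, differed by 0.28 (adjusted p = 0.182, limma), with every PCN liver above every corn oil liver. The gap was narrow, 11.02 in PCN replicate 4 against 11.01 in corn oil replicate 5. Corn oil replicate 2 was the lowest liver of all, at 10.52, and the difference without it is not given here. Slc40a1, the iron exporter ferroportin that hepcidin removes from the membrane, differed by -0.32 (adjusted p = 0.250, limma), and the transferrin receptor gene Tfrc by 0.57 (adjusted p = 0.393, limma). The median of the list was 0.15.

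By the likeness of their animal-to-animal pattern, the genes nearest to Id4 1375120_at over the 10 arrays, group means removed, were Dixdc1 (r = 0.936), Gtf3c5 (r = 0.930), Ift25 (r = 0.919), Sptssa (r = 0.900) and RGD1311745 (r = 0.891). None is a member or a gene of the BMP lists. The limma fit called 0 of these 5 between PCN and corn oil, and the difference was -0.49 ± 0.15 for Dixdc1 (SE; adjusted p = 0.108, limma) and 0.07 for RGD1311745. These were chosen as the highest of all tested probe sets and carry no test.

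Marker genes of the cell types that could carry these transcripts were compared on the same arrays, and limma called 0 of 42 tested. At an unadjusted p below 0.05, 11% of all probe sets were higher and 6.71% lower on the first array type. On the second these shares were 13.2% and 14.1%. Of 10 endothelial markers, of the cells that make Bmp6, the 8 on the first array type had a mean between 8.76 and 9.24 in corn oil livers and between 8.83 and 9.09 after PCN. Of the 10, 0 had an unadjusted p below 0.05 and 5 were negative, from Kdr at -0.14 to Eng at 0.25 with Tek at 0.21, and their median was 0.04. The 10 stellate and fibroblast markers ran from 8.29 to 8.62 against 8.51 to 8.72, with 3 higher at the unadjusted p, Col3a1 at 0.43 (adjusted p = 0.0824, limma), Col1a1 at 0.41 and Hgf at 0.29, and 3 negative, Lrat at -0.17, Acta2 at -0.14 and Des at -0.06, and a median of 0.19. Of 8 Kupffer cell markers the 6 on the first array type ran from 10.58 to 11.02 against 10.68 to 11.38. Of the 8, 0 were negative, with a median of 0.24 and 1 higher at the unadjusted p, Cd163 at 0.40 (adjusted p = 0.136, limma), and C1qb at 0.30. The 8 hepatocyte markers had 1 higher at the unadjusted p, Fgb at 0.29, with Pck1 at -0.17. Cholangiocyte and lymphocyte markers were tested for 3 of 6 and 3 of 8 genes. The cholangiocyte markers gave Cftr at -0.11, Epcam at -0.07 and Spp1 at 0.045. The lymphocyte markers gave Cd3g at -0.26, the only 1 lower at the unadjusted p, Ptprc at 0.04 and Cd4 at 0.09. The part of these levels in the Id4 and Smoc1 values was not tested.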

How the data were processed

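Liver RNA of the rats was hybridised to Affymetrix arrays, 10 of the first type and 9 of the second. Per the labels' protocols, RNA was purified on RNeasy columns with DNase digestion and made into biotinylated cRNA. The authors deposited log2 values per probe set, and the submitters' processing notes name MAS5 without a version; the base was inferred from the range, and the normalization is not given in the sources used here. Arrays have no sequencing depth, so their number limits precision.

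Values were used as deposited. Left out were 57 control probe sets per table and those whose mean lay under the 30th percentile (6.67 and 5.51), leaving 11106 and 10693. Each was compared with limma 3.58.1 in R 4.3.3 (treatment only, intensity trend, two-sided, Benjamini-Hochberg within a table, threshold 0.05), a fit tested on simulated data. Symbols came from GEO's platform annotation, updated through RefSeq (GRCr8).

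The members and lists (BMP ligands, receptors, SMADs, inhibitors, targets, iron handling, TGF-beta, bHLH, cell type markers) were chosen with earlier results of these data known. Every member was named, and so were the 5 genes most like Id4. The rule for each list was called genes up to 4, otherwise the 2 with the smallest p. Named outside that rule were Bambi, Atoh8, Slc40a1, Aco1 and Tfrc, and the markers Kdr, Col1a1, Lrat, Acta2, Des, Spp1 and Cd4. Alternatives were other filters, scalings, pseudocount, variance settings, a replicate block, a term for 2 sets of arrays and leaving out livers.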

Additional observations from a re-analysis of the deposited data

Results flagged for a closer look

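In 46 groups of member values examined, 6 had a liver standing apart from the rest of its group by Dixon's test, where chance gives about 1 in 20. For Id2 1368870_at PCN replicate 2 read 8.32, with the nearest PCN liver at 9.55. For Id3 corn oil replicate 2 read 9.17, with the nearest at 10.40, and for Smad6 1375121_at the same liver read 7.60, with the nearest at 8.14. For Id4 1375183_at corn oil replicate 2 was the high value, at 9.39 against 9.18. For Id1 corn oil replicate 4 read 9.20 against 8.82. On the second array type Smad6 1385928_at read 5.87 in PCN replicate 5, against 5.64 in the nearest PCN liver.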

How the results depend on the processing

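On the first array type the 3 called member probe sets became 5 with array weights and 1 with an array-set term (corn oil replicate 1 with PCN replicates 1, 3, 4 and 5 against the others), where both Id4 calls were lost at -0.89 and -0.56 and Smoc1 was kept; leaving out each liver gave 2 to 3. Called BMP targets beside Id4 rose from 0 to 1 with centring and 3 with array weights, and were 0 to 0 with a liver left out. Over all probe sets, 361 calls (256 higher, 105 lower) became 239 with the replicate block, 1051 with array weights, 165 with the array-set term and 680 without corn oil replicate 2 and PCN replicate 2, chosen after seeing the data; leaving out each liver gave 154 to 447. The split was 256 to 176 with trimmed mean scaling, 247 to 181 with quantile normalization and 214 to 252 with centring.

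On the second array type the 3 called member probe sets became 6 with centring, and 1 to 3 with a liver left out: 1 without corn oil replicate 1, 3, 4 or 5 or PCN replicate 1, 2 or 3. Smoc1 kept its call in every alternative run on both array types, and Id4 1394022_at lost it in 8 of 9 fits without 1 liver. Both genes were chosen on this contrast, so their calls on either array type describe the processing alone and support nothing. The 577 calls (402 to 175) became 875 with trimmed mean scaling (397 to 478), 6493 with centring (210 to 6283), 203 with the replicate block and 1475 with array weights; median scaling gave 518 to 72. Leaving out each liver gave 84 to 1479, the lowest without corn oil replicate 4 and the highest without PCN replicate 5. The Id4 agreement between array types was 0.58 without the 2 farthest animals. The cause of these changes was not tested. Replicate numbers do not pair the animals: same-numbered deviations correlated between -0.301 and 0.284 on the first array type and between 0.02 and 0.201 on the second, and the best match was the own number only for replicate 3. No sign of a called value turned.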

Other observations

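The TGF-beta and activin branch, which shares Smad4 and Smad7 with BMP signalling, had 16 of 23 genes tested and 0 called by limma, with 3 lower at an unadjusted p below 0.05 and a median of -0.11. The matrix protein gene Tgfbi differed by -0.29 (adjusted p = 0.149, limma) and the signal transducer Smad3 by -0.29 (adjusted p = 0.213, limma). Of 19 bHLH partners and relatives of the Id proteins 14 were tested and limma called 0, with 1 lower at the unadjusted p, Usf2 at -0.20 (adjusted p = 0.266, limma), and a median of 0.02; Tcf21 differed by 0.18 (adjusted p = 0.321, limma).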
